A study of Homo sapiens with 18 samples.

Results

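The genes described here are 10 nuclear genes for mitochondrial chaperones, proteases and import subunits: HSPD1, HSPE1, HSPA9, TRAP1, LONP1, CLPP, CLPX, TOMM20, TOMM40 and TIMM23. They are taken by name from the 57500 genes of the count table, by a rule that uses no measured value, although the list was drawn up with earlier results of these data known. All 10 were found, and all 10 passed the filter on low counts, which left 16994 genes tested. Transcripts were measured by polyA RNA-seq in IMR90, a human lung fibroblast line, with 3 libraries in every group. The groups were proliferating cells (Prol), cells made senescent by ionizing radiation (Sen (IR)), and irradiated cells treated with CCCP, alone or with acetate, with mtDNA, or with acetate and mtDNA together. CCCP dissipates the proton gradient across the inner mitochondrial membrane, and in this study it was used on cells engineered so that it triggers removal of their mitochondria. The labels name no construct for any group. The study describes its irradiated cells without CCCP as engineered in the same way, and whether the Prol libraries were is not given in the sources used here. CCCP itself and the loss of mitochondria cannot be told apart. Acetate is turned into acetyl-CoA outside mitochondria, and mtDNA was given by transfection. The labels do not say whether groups without mtDNA received the transfection reagent, so mtDNA and transfection itself cannot be told apart. The comparisons ask how transcripts for mitochondrial protein upkeep and entry differ with senescence, after mitochondria are removed, and when acetate or mtDNA is then given.

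Nearly all mitochondrial proteins are encoded in the nucleus, made in the cytosol and imported unfolded. TOMM20 is a receptor and TOMM40 the channel of the outer membrane translocase (TOM), and TIMM23 forms part of the inner membrane translocase (TIM23). In the matrix, HSPA9 (mortalin) pulls in and folds the arriving chains, HSPD1 (HSP60) with its lid HSPE1 (HSP10) encloses proteins for folding, and TRAP1 is the mitochondrial member of the HSP90 family. LONP1 is a matrix protease that degrades damaged proteins, and CLPX is the unfolding ring that feeds the protease CLPP. Several of these genes are classical targets of the mitochondrial unfolded protein response, and in fibroblasts they are expressed constitutively.

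Total counts on genes ranged from 24624886 to 46224280 a library, and the counts of the 10 genes from 324 (CLPP) to 26531 (HSPA9). Counting error, taken as Poisson, came to 0.012 (HSPA9) to 0.066 (CLPP) on the log2 scale, which is 3.96% of the variance between replicates for HSPA9 and 50.1% for CLPP, with TRAP1 at 46.0% and CLPX at 44.9%. MKI67, a proliferation marker, was lower in Sen (IR) than in Prol by 1.95 on the log2 scale, and CDKN1A, the p21 gene, was higher by 0.50. Of 6 genes listed to check the labels, MKI67 among them, 5 were higher and 0 lower with CCCP against Sen (IR). Of all genes 34.0% were higher and 31.3% lower there. With acetate against Sen (IR) + CCCP 2 of the 6 were higher and 4 lower, beside 28.8% and 28.3%. Their median log2 fold change was 0.82 with CCCP and -2.33 with acetate. Whether the arrest differs between these groups was not tested. The 13 protein-coding genes of mtDNA took 2.62% ± 0.295 of counts in Prol and 2.11% ± 0.468 in Sen (IR) (SD, n = 3 each), against 0.122% ± 0.0116 with CCCP, 0.132% ± 0.00761 with acetate, 0.0505% ± 0.00387 with mtDNA and 0.121% ± 0.1003 with acetate and mtDNA together. The last mean rests on replicate 2, with 0.237% against 0.0640% and 0.0624% in the other libraries of that group. The summed level of 8 fibroblast markers went from 37074 to 40792 CPM (counts scaled to a common library size) in Prol and 20345 to 25271 in Sen (IR) to 6586 to 6880 with CCCP, while the 3 blood and 3 endothelial markers summed to at most 1.04 CPM in each list and library. Sen (IR) replicate 3 and replicate 2 of the acetate + mtDNA group stood apart from the other libraries of their groups, with a chi-square per degree of freedom of 22.1 to 28.2 against 2.77 to 7.69 for all other pairs. Epithelial markers summed to 27.9 to 30.5 CPM in Prol and 1.7 to 12.9 CPM elsewhere. The part of these differences in the results below was not tested, and in bulk RNA fewer cells of a type and less RNA per cell cannot be told apart. The study counts its replicates as independent experiments, while the labels do not tie libraries to separate cultures, and the p-values measure the spread between these libraries.

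HSPD1 and HSPE1 lie on opposite strands of chromosome 2 of GRCh38, HSPD1 on the minus strand at chr2:197486584-197516737 and HSPE1 on the plus strand at chr2:197500140-197503449. The annotated span of HSPE1 thus lies within that of HSPD1. A RefSeq start of HSPD1 at 197500274 and that of HSPE1 at 197500379 lie head to head. The RefSeq table of promoters (GRCh38.p14, 250 bases before to 50 after each start) held 11 entries for 9 of the 10 genes, all but CLPP. In these windows 12 short motifs were searched on both strands. The motif CACGTG, an E-box, was found for 5 genes, HSPD1, HSPE1, HSPA9, LONP1 and TOMM20, and in 7.26% of the 35116 promoters of the table. HSPD1 and HSPE1 share a single copy of it, which lies between their start sites. The NRF1 motif, named for a regulator of mitochondrial genes and shown in capitals below, was found for 6 genes (HSPD1, HSPE1, LONP1, CLPX, TOMM20 and TOMM40) and in 5.78% of all promoters. A run of heat shock units, inverted repeats of GAA, was found for HSPD1 alone, with 2 overlapping matches, and in 0.49% of all promoters. These matches belong to another RefSeq start of HSPD1, at 197499840, and lie downstream of its start next to HSPE1, not in the shared region. TGACGTCA, a cyclic AMP response element, was found for TRAP1 alone and in 1.85% of all promoters. CCAAT was found for CLPX and TOMM40 and in 34.6% of all promoters, GAANNTTC for HSPD1 and in 6.77%, a stricter form of the NRF1 motif for LONP1 and in 1.24%, and CCGGAAG for LONP1, TOMM20 and TIMM23 and in 10.3%. None of the 9 genes held TGATGNAA (3.62% of all promoters), TTGCATCA (0.866%), TGACGCAA (0.513%) or the ZNF143 motif (0.943%) in these windows. A match describes the letters of the window and is not a site of binding. The windows of HSPE1, HSPD1 and HSPA9 printed here overlap a GENCODE exon of their gene, and those of LONP1, TOMM20 and TRAP1 overlap none. The following 30-base windows show the shared element and the elements of single genes beside which the values below can be read, 5′ to 3′ on the gene's strand, with the motif in capitals.
HSPE1 and HSPD1 shared CACGTG, chr2:197500345-197500374, plus strand: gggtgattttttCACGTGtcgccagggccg
HSPE1 and HSPD1 shared NRF1 motif, chr2:197500322-197500351, plus strand: tggggcgagcGCGCCTGCGCgctgggtgat
HSPD1 heat shock units, both matches, chr2:197500061-197500090, minus strand: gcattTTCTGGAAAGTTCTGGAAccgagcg
HSPA9 CACGTG, chr5:138575403-138575432, minus strand: cgcccctcacccCACGTGgttggaggtttc
LONP1 CACGTG, chr19:5720178-5720207, minus strand: cgcgccgggcgtCACGTGcgtttcgcggcg
TOMM20 CACGTG, chr1:235128988-235129017, minus strand: aaagtccgtggtCACGTGcaaattcccgac
TRAP1 TGACGTCA, chr16:3717600-3717629, minus strand: ggcgcccgccgTGACGTCAccgccccgcgc

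Per length, the 10 genes spanned a wide range of levels. By mean TPM (a level scaled for gene length) over the 18 libraries, HSPA9 was highest at 530 TPM, followed by HSPD1 at 430, TOMM20 at 410, TIMM23 at 228 and HSPE1 at 193, and 94.4% to 98.4% of tested genes lay below these 5. LONP1 at 50.05 TPM, CLPX at 48.8, TOMM40 at 42.3, CLPP at 31.6 and TRAP1 at 19.6 formed the lower part of the order, with TRAP1 above 57.9% of tested genes. Within groups the libraries of most of the genes lay close together, with a pooled SD of 0.040 (TOMM20) to 0.10 (HSPE1) in log2 CPM. Over all 18 libraries HSPA9 varied most (root mean square deviation 0.53 log2 CPM) and TIMM23 and TRAP1 least (0.081 and 0.083).

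After CCCP, 6 of the 10 genes had higher transcript levels. In Sen (IR) + CCCP against Sen (IR), TOMM40, HSPA9, HSPE1, TOMM20, LONP1 and HSPD1 rose and none fell, with TRAP1, CLPP, CLPX and TIMM23 not past the threshold (edgeR adjusted p under 0.05). Of all genes tested, 34.0% rose and 31.3% fell in the same comparison. The median log2 fold change was 0.31 over the 10 genes and 0.026 over all genes tested. None fell at an unadjusted p under 0.05 either, nor with DESeq2. These CPM are scaled by TMM, which centres the typical gene. On the TPM scale the median of all tested genes itself moved by a further 0.33 in this comparison, 0.39 in Sen (IR) + CCCP against Prol and 0.26 in acetate against Sen (IR), and on TPM all 10 genes were called higher with CCCP. The changes below are therefore relative to the typical gene, and for CLPX and TIMM23 after CCCP the direction depends on that choice.

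In senescence alone, against Prol, 5 of the 10 genes rose and 1 fell, where 26.7% of all genes rose and 29.9% fell. HSPA9, TOMM40, TOMM20, HSPD1 and TIMM23 were higher and LONP1 was lower. Against Prol, Sen (IR) + CCCP had 5 genes higher and none lower, where 35.1% of all genes rose and 34.1% fell, and no gene was lower at an unadjusted p under 0.05 or with DESeq2. With acetate against Sen (IR) + CCCP 1 gene rose and 5 fell, beside 28.8% and 28.3% of all genes. With mtDNA against Sen (IR) + CCCP HSPA9 alone rose and none fell, beside 10.7% and 7.40% of all genes, and again none fell at an unadjusted p under 0.05 or with DESeq2. These comparisons share the libraries of Sen (IR) + CCCP, so a chance deviation of those 3 libraries would enter the change with CCCP and the changes with acetate and mtDNA with opposite signs.

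**Figure D1:**
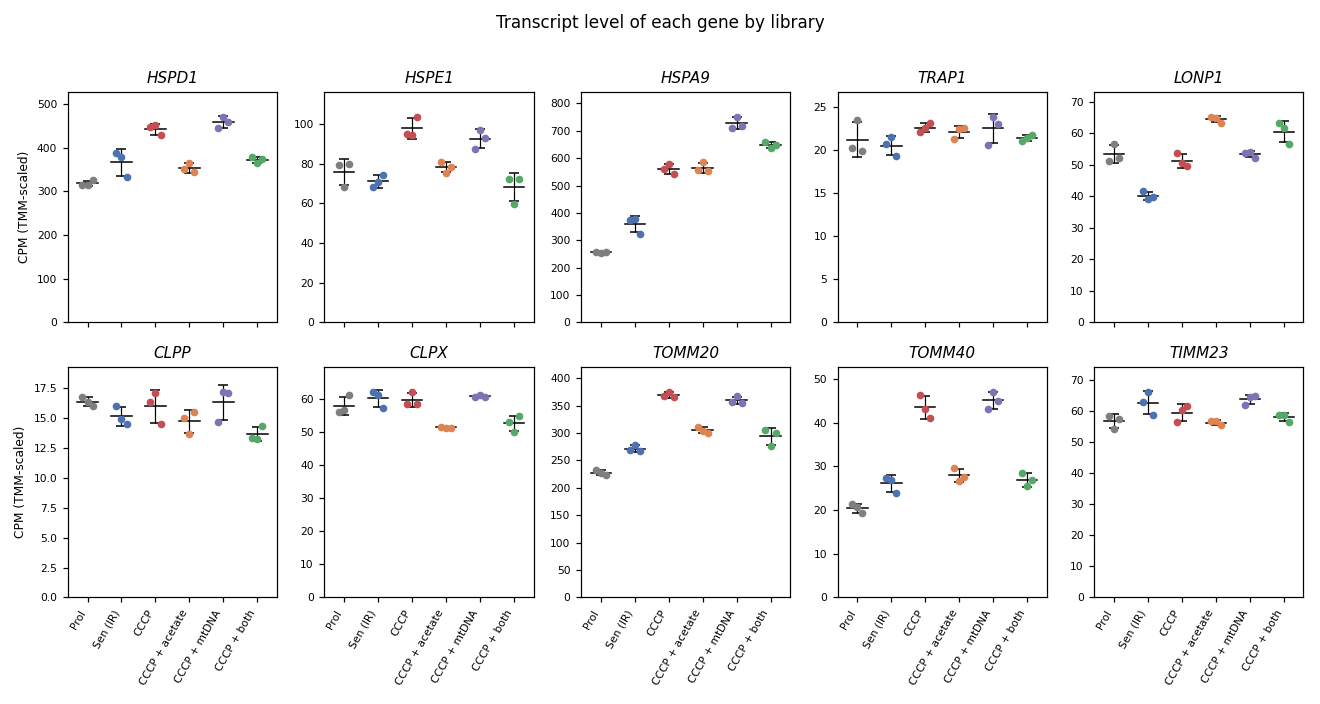
Level of each of the 10 genes in CPM on TMM-scaled library sizes (y axis, from 0) for the 6 groups (x axis; CCCP stands for Sen (IR) + CCCP). Points are the 3 libraries, lines the mean and error bars the SD; the 3 HSPA9 libraries with mtDNA, at 711 to 752 CPM, lie above all others, and TOMM40 at 41.0 to 46.3 CPM with CCCP lies above its 25.4 to 29.6 CPM in both acetate groups.

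HSPA9, the matrix HSP70, had the largest difference from Prol of the chaperones. It stood at 257, 255 and 257 CPM in Prol, at 375, 378 and 324 CPM in Sen (IR) and at 562, 580 and 541 CPM with CCCP. The 3 groups did not overlap, and the Sen (IR) replicate that stood apart was the lowest of its group. The rise was 0.49 ± 0.052 (log2 fold change ± SE) with senescence (edgeR adjusted p = 5.93e-08) and 0.64 ± 0.052 with CCCP (adjusted p = 3.55e-10), and Sen (IR) + CCCP was 2.19-fold above Prol.

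Acetate left HSPA9 at 558, 584 and 552 CPM, overlapping the CCCP libraries, with a log2 difference of 0.01 and a 95% interval of -0.10 to 0.12 (-0.11 on library totals without a scaling factor, edgeR adjusted p = 0.0418). With mtDNA it stood at 711, 752 and 718 CPM, and with acetate and mtDNA together at 659, 638 and 647 CPM. Both groups given mtDNA lay above both groups not given it, without overlap. The rise with mtDNA was 0.37 ± 0.052 (edgeR adjusted p = 1.63e-05), and that of the combination over acetate was 0.20 ± 0.052 (adjusted p = 0.0139; 0.0676 without acetate replicate 3). HSPA9 was the only one of the 10 genes past the threshold in either of these comparisons. The combination was lower than mtDNA alone by 0.17 on the log2 scale (adjusted p = 0.00915; 0.0805 without mtDNA replicate 2). It was above CCCP alone by 0.21 ± 0.052 (adjusted p = 0.00144), a call that was lost on library totals (0.030, adjusted p = 0.584) and on TPM (0.076, limma adjusted p = 0.198). The rise with mtDNA was smaller when acetate was also given, by an interaction of -0.18 ± 0.073 that was not past the threshold (edgeR adjusted p = 0.348, unadjusted p = 0.0257). Outside the 10 genes, HSPA5, the HSP70 of the endoplasmic reticulum, went from 671, 677 and 629 CPM with CCCP to 873, 892 and 888 CPM with mtDNA. The TPM ratio of HSPA9 over HSPA5 overlapped between these 2 groups, while that of HSPA9 over HSPA8, a cytosolic HSP70, was higher in every mtDNA library. HSPA8 itself was lower with mtDNA, at 1192, 1161 and 1129 CPM against 1314, 1349 and 1347 CPM with CCCP, and this enters the ratio.

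HSPD1 and HSPE1, the chamber and lid of the same folding machine, changed in the same direction with CCCP and with acetate, while in senescence HSPD1 alone passed the threshold. HSPD1 stood at 316, 314 and 326 CPM in Prol, 388, 378 and 332 CPM in Sen (IR), and 446, 451 and 428 CPM with CCCP. HSPE1 stood at 79.5, 68.0 and 79.8 CPM in Prol, 68.0, 70.7 and 74.4 CPM in Sen (IR), and 94.9, 94.6 and 104 CPM with CCCP. For HSPD1 the 3 groups did not overlap, while for HSPE1 the Prol and Sen (IR) libraries overlapped and the CCCP libraries lay above both. HSPD1 rose by 0.20 ± 0.051 in senescence (edgeR adjusted p = 0.0019), and HSPE1 differed by -0.09 ± 0.071 (adjusted p = 0.271). With CCCP HSPD1 rose by 0.27 ± 0.051 (adjusted p = 7.81e-05) and HSPE1 by 0.46 ± 0.070 (adjusted p = 5.74e-06).

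With acetate both genes returned to lower levels, HSPD1 at 352, 365 and 344 CPM and HSPE1 at 80.8, 75.5 and 78.5 CPM. Each fell by 0.32 against CCCP alone, HSPD1 with an SE of 0.051 and an edgeR adjusted p of 1.32e-05, HSPE1 with an SE of 0.070 and an adjusted p of 0.000468. No acetate library overlapped a CCCP library for either gene. With mtDNA HSPD1 stood at 445, 471 and 459 CPM and HSPE1 at 87.3, 96.8 and 93.2 CPM, both overlapping CCCP alone, and with the combination at 378, 365 and 374 CPM and 72.5, 59.9 and 72.3 CPM. The combination was below mtDNA alone by 0.30 for HSPD1 and by 0.44 for HSPE1 on the log2 scale (adjusted p = 3.05e-05 and 1.76e-05). Against acetate alone HSPE1 differed with the combination by -0.20 ± 0.071 (adjusted p = 0.0741), and its lowest library was the replicate that stood apart.

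TRAP1, the HSP90 of mitochondria, was the steadiest of the chaperones. Its libraries lay between 19.4 and 23.9 CPM in all 6 groups, and it was past the threshold in none of the 10 comparisons. With CCCP it stood at 22.1, 22.6 and 23.2 CPM against 20.7, 21.5 and 19.4 CPM in Sen (IR), groups that did not overlap, with a log2 difference of 0.14 ± 0.070 (edgeR adjusted p = 0.0878; 95% interval -0.01 to 0.28). It passed without Sen (IR) replicate 2 (0.18, adjusted p = 0.0473), and Sen (IR) + CCCP against Prol passed without Prol replicate 2 (0.17, adjusted p = 0.0403).

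LONP1, the matrix protease, was the only gene of the 10 that fell in senescence and the only one that rose with acetate. It stood at 51.3, 56.7 and 52.3 CPM in Prol and at 41.7, 39.1 and 39.8 CPM in Sen (IR). With CCCP it stood at 53.8, 50.5 and 49.6 CPM, with acetate at 65.3, 64.8 and 63.3 CPM, and with mtDNA at 53.9, 54.2 and 52.2 CPM. The Sen (IR) libraries were below those of all other groups and the acetate libraries above them. LONP1 fell by 0.41 on the log2 scale in senescence (SE 0.053, edgeR adjusted p = 8.29e-07), rose by 0.35 ± 0.052 with CCCP (adjusted p = 4.00e-06) and by a further 0.33 ± 0.051 with acetate (adjusted p = 9.84e-06).

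With the combination LONP1 stood at 63.2, 61.6 and 56.7 CPM, above CCCP alone by 0.24 ± 0.052 and above mtDNA alone by 0.18 ± 0.052 (edgeR adjusted p = 0.000405 and 0.00525). Both calls were lost on library totals (0.059 and 0.070, edgeR adjusted p = 0.341 and 0.273) and on TPM (0.10 and 0.12, limma adjusted p = 0.102 and 0.0709). Sen (IR) + CCCP and Prol overlapped, with a log2 difference of -0.06 (95% interval -0.16 to 0.05; 0.30 on library totals without a scaling factor).

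CLPP and CLPX, the protease and its unfolding ring, were not past the threshold with senescence, CCCP or mtDNA. In senescence CLPX was called higher on library totals (0.15, edgeR adjusted p = 0.0130). It was also called higher on TPM (0.13, limma adjusted p = 0.0210) and with library medians subtracted (0.15, limma adjusted p = 0.0174). CLPX stood at 62.0, 61.2 and 57.1 CPM in Sen (IR), 58.4, 62.2 and 58.4 CPM with CCCP and 60.6, 61.0 and 60.6 CPM with mtDNA. With acetate it stood at 51.5, 51.3 and 51.1 CPM, and with the combination at 53.0, 50.04 and 54.7 CPM. Both acetate groups lay below all libraries of the other 4 groups. CLPX fell by 0.22 on the log2 scale with acetate against CCCP alone (SE 0.049, edgeR adjusted p = 0.000581), and by 0.21 with the combination against mtDNA alone (SE 0.049, adjusted p = 0.00109). With acetate LONP1 rose and CLPX fell. The fall of CLPX with the combination against CCCP alone was lost without CCCP replicate 2 (edgeR adjusted p = 0.0548).

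CLPP was measured at 13.3 to 17.2 CPM over all libraries. It stood at 16.3, 17.1 and 14.5 CPM with CCCP and at 13.3, 13.3 and 14.4 CPM with the combination, a fall of 0.23 on the log2 scale (SE 0.080, edgeR adjusted p = 0.0163). That call was lost without CCCP replicate 1 or 2 or without replicate 1 or 2 of the combination (edgeR adjusted p 0.0566 to 0.149), and with DESeq2 (0.0575). Its fall with the combination against mtDNA alone was lost without mtDNA replicate 2 or 3 or replicate 1 of the combination (edgeR adjusted p 0.0515 to 0.0683).

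TOMM40, the outer membrane channel, had the largest change with CCCP of the 10 genes. It stood at 21.3, 20.7 and 19.3 CPM in Prol, 27.4, 26.9 and 23.9 CPM in Sen (IR) and 46.3, 43.2 and 41.0 CPM with CCCP, groups that did not overlap. With acetate it stood at 29.6, 26.7 and 27.6 CPM, with mtDNA at 43.1, 47.1 and 45.1 CPM and with the combination at 28.5, 25.4 and 26.9 CPM. The acetate libraries overlapped Sen (IR) and the mtDNA libraries overlapped CCCP alone. TOMM40 rose by 0.36 ± 0.070 in senescence (edgeR adjusted p = 0.000139) and by 0.74 ± 0.066 with CCCP (adjusted p = 1.98e-09), and it fell by 0.64 with acetate (SE 0.065, adjusted p = 2.44e-08). Acetate differed from Sen (IR) without CCCP by 0.10 (95% interval -0.04 to 0.24). With mtDNA present, the combination was lower than mtDNA alone by 0.74 (SE 0.067, adjusted p = 3.83e-09).

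TOMM20, the outer membrane receptor, changed in the same directions with senescence, CCCP and acetate, with smaller changes. It stood at 233, 226 and 224 CPM in Prol, 268, 278 and 268 CPM in Sen (IR), 368, 376 and 365 CPM with CCCP, 311, 304 and 300.003 CPM with acetate, 357, 367 and 356 CPM with mtDNA and 305, 276 and 300.5 CPM with the combination. Prol, Sen (IR), acetate and CCCP did not overlap one another. The rise was 0.25 ± 0.044 in senescence and 0.45 ± 0.043 with CCCP (edgeR adjusted p = 3.47e-05 and 6.98e-09), and the fall with acetate was 0.28 (SE 0.043, adjusted p = 1.01e-05). Acetate remained above Sen (IR) by 0.17 ± 0.043 (adjusted p = 0.00176).

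TIMM23, the inner membrane translocase gene, departed from the outer membrane pair. It stood at 62.9, 66.3 and 58.9 CPM in Sen (IR) and at 56.5, 60.4 and 61.6 CPM with CCCP, groups that overlapped, with a log2 difference of -0.08 ± 0.050 (edgeR adjusted p = 0.185). The difference was -0.12 with an adjusted p of 0.0369 without the 2 libraries that stood apart (0.0406 without Sen (IR) replicate 3 alone), and 0.35 on the TPM scale. With upper-quartile factors it was -0.12 as well (edgeR adjusted p = 0.0369). The rise in senescence from 58.5, 54.3 and 57.5 CPM, by 0.14 ± 0.050 (adjusted p = 0.0184), was lost without Prol replicate 2 or Sen (IR) replicate 1 or 2 (edgeR adjusted p 0.0554 to 0.212). That rise was also lost with no filter on low counts (0.11, edgeR adjusted p = 0.231). The fall of TIMM23 with the combination against mtDNA alone was lost on leaving out each of 9 of the 18 libraries in turn (edgeR adjusted p 0.0502 to 0.1498). It was also lost with DESeq2 (adjusted p = 0.0897), and in edgeR with DESeq2 scaling factors (0.0654) or no filter on low counts (0.142). TIMM23B, a near-identical copy, took 16.3% of the counts of the pair. Pseudogenes and read-through copies took 0.118% for HSPD1 and 0.909% for HSPE1. Only unique alignments were counted, so reads that match a gene and its copy equally do not appear in these shares. The shares therefore do not show how many reads were lost. The read-through gene HSPE1-MOB4 also overlaps HSPE1 on the same strand.

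**Figure D2:**
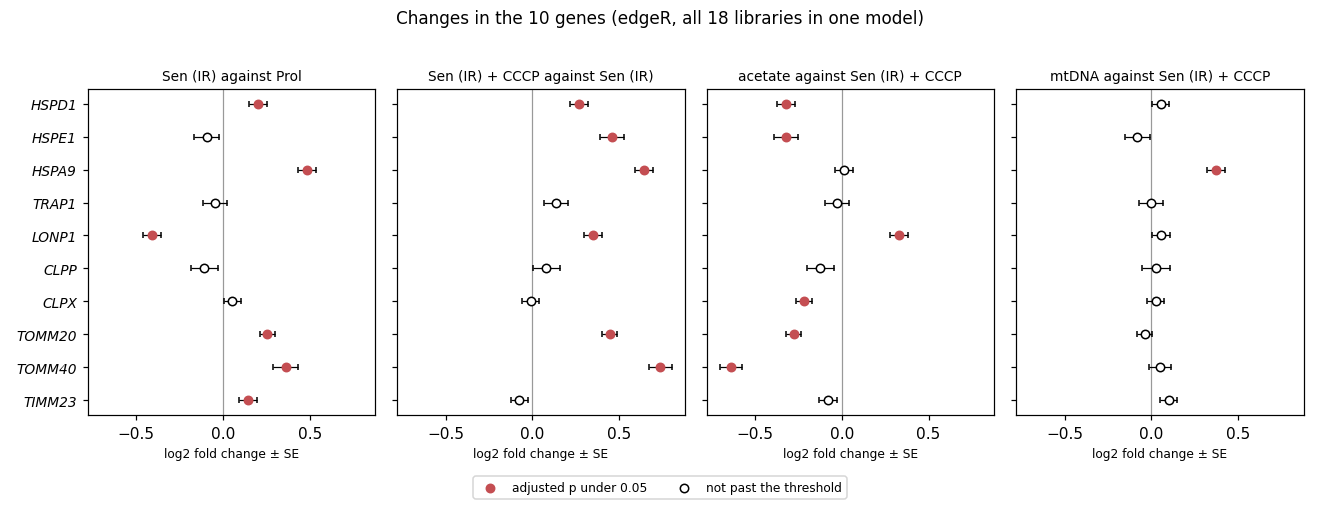
Log2 fold change (x axis) of the 10 genes (y axis) in 4 comparisons, with bars of 1 SE; filled points have an edgeR adjusted p under 0.05 and open points do not. TOMM40 is farthest right with CCCP at 0.74 and farthest left with acetate at -0.64, LONP1 is the only filled point on the right with acetate at 0.33, and HSPA9 is the only filled point with mtDNA at 0.37.

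With acetate and mtDNA together against Sen (IR) + CCCP, 2 of the 10 genes rose (LONP1 and HSPA9) and 6 fell (TOMM40, HSPE1, TOMM20, HSPD1, CLPP and CLPX), beside 30.3% and 31.4% of all genes. On the TPM scale the split was 0 higher and 8 lower. The combination against acetate alone had HSPA9 higher and no gene lower, beside 6.57% and 6.0% of all genes, with 1 gene lower (HSPE1) at an unadjusted p under 0.05 and 0 with DESeq2. The combination against mtDNA alone had LONP1 higher and 8 genes lower, beside 27.4% and 29.9% of all genes, and 0 and 8 on the TPM scale. No gene of the 10 was past the threshold in the interaction of acetate and mtDNA by edgeR, beside 0.0765% higher and 0.583% lower of all genes. At an unadjusted p under 0.05 HSPA9 alone was, and DESeq2 and limma called 0. Without the 2 libraries that stood apart, the HSPA9 interaction was -0.16 with an adjusted p of 0.0475.

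The acetate group was also compared with Sen (IR) directly. LONP1 (0.68 ± 0.052), HSPA9 (0.65 ± 0.052) and TOMM20 (0.17 ± 0.043) were higher and CLPX (-0.23 ± 0.049) and TIMM23 (-0.16 ± 0.049) lower, 3 and 2 genes beside 33.2% and 32.7% of all genes, and 9 and 0 on the TPM scale. HSPD1, TOMM40, HSPE1, TRAP1 and CLPP were not past the threshold. HSPD1 differed by -0.05 (95% interval -0.16 to 0.06; -0.11 with an edgeR adjusted p of 0.00761 without the 2 libraries that stood apart), and HSPE1 by 0.14 (adjusted p = 0.0863; 0.18 with an adjusted p of 0.00989 without those libraries). HSPE1 also passed on leaving out each of 9 of the 18 libraries in turn (edgeR adjusted p 0.0122 to 0.0498) and HSPD1 without Sen (IR) replicate 3 (0.0170). The TIMM23 call was lost without Sen (IR) replicate 2 (0.157) or acetate replicate 3 (0.0855) and with no filter on low counts (0.153). Those of TIMM23 and CLPX were lost on library totals (0.764 and 0.102).

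Ratios of TPM within a library do not depend on how libraries are scaled. The pairs were picked after the values were seen, and with 3 libraries against 3 the exact two-sided permutation test cannot go below p = 0.1, which 31 of the 45 tests reached (9 ratios in 5 comparisons; Benjamini-Hochberg adjusted p = 0.145 for these). The share that other gene pairs would reach was not computed, so this count says nothing particular about these pairs. HSPA9 over HSPD1 was 0.720 ± 0.0128 in Prol, 0.876 ± 0.0148 in Sen (IR), 1.13 ± 0.0124 with CCCP, 1.43 ± 0.00750 with acetate, 1.42 ± 0.0173 with mtDNA and 1.56 ± 0.00848 with the combination (SD, n = 3 each). In the comparisons made for this ratio the groups did not overlap. LONP1 over CLPX was 0.992 ± 0.0793 in Prol, 0.719 ± 0.0308 in Sen (IR), 0.925 ± 0.0591 with CCCP, 1.35 ± 0.0166 with acetate, 0.945 ± 0.0171 with mtDNA and 1.24 ± 0.110 with the combination. It was lowest in Sen (IR) and highest in the 2 acetate groups. TIMM23 over TOMM20 was 0.723 ± 0.0247 in Prol, 0.670 ± 0.0283 in Sen (IR) and 0.467 ± 0.0224 with CCCP, and its CCCP libraries lay below those of Sen (IR). The lid over the chamber, HSPE1 over HSPD1, was 0.420 ± 0.0550 in Sen (IR) and 0.476 ± 0.0388 with CCCP, which overlapped.

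**Figure D3:**
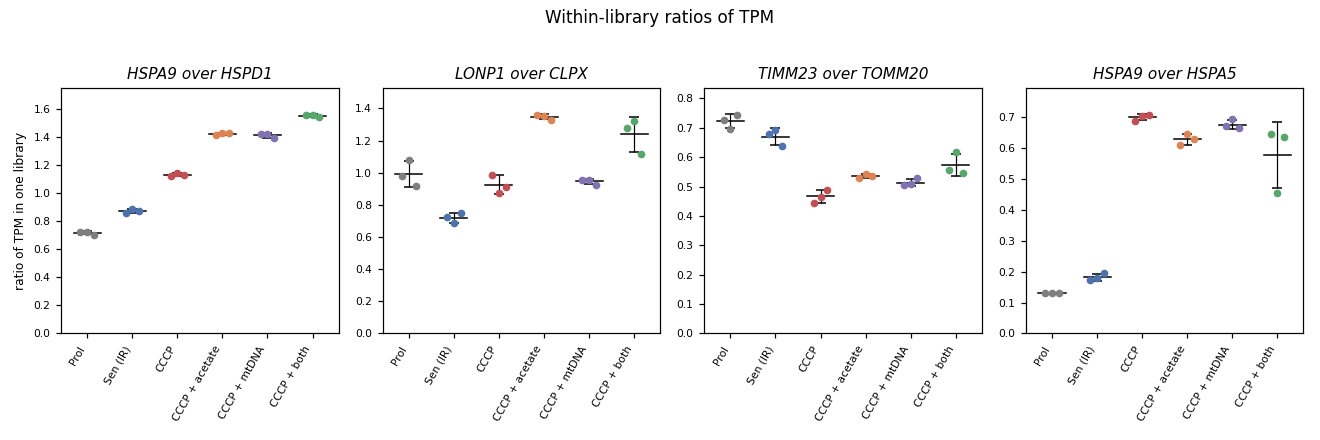
Ratio of TPM of 2 genes within each library (y axis, from 0) for the 6 groups (x axis; CCCP stands for Sen (IR) + CCCP). Points are the 3 libraries, lines the mean and error bars the SD; HSPA9 over HSPD1 runs from 0.720 in Prol to 1.56 with acetate and mtDNA, and TIMM23 over TOMM20 is 0.723 in Prol and 0.467 with CCCP.

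The chaperones of other compartments included several that fell with CCCP. HSPA5, the HSP70 of the endoplasmic reticulum, went from 1785, 1728 and 1371 CPM in Sen (IR) to 671, 677 and 629 CPM with CCCP, and HSP90B1, its HSP90, from 2874, 2665 and 2127 CPM to 630, 647 and 621 CPM. HSPA5 fell by 1.30 and HSP90B1 by 2.01 on the log2 scale (edgeR adjusted p = 7.61e-11 and 6.35e-14). In the cytosol, HSPA8 fell by 0.54 and HSP90AB1 by 0.16 (adjusted p = 1.24e-07 and 0.0113, the HSP90AB1 libraries overlapping), TCP1, a subunit of the chaperonin CCT, rose by 0.12 (adjusted p = 0.0235), and HSP90AA1 differed by 0.08 (adjusted p = 0.160). Of 13 such counterparts 4 were higher and 6 lower with CCCP, beside 34.0% and 31.3% of all genes, and 1 higher and 9 lower with acetate, beside 28.8% and 28.3%. In senescence 11 of the 13 were higher and 0 lower, beside 26.7% and 29.9%. With mtDNA 1 was higher and 1 lower, beside 10.7% and 7.40%. HSPA9 over HSPA5 in TPM was 0.182 ± 0.0111 in Sen (IR) and 0.700 ± 0.0104 with CCCP, and TRAP1 over HSP90B1 0.00730 ± 0.000855 and 0.0321 ± 0.00118. HSPA9 over HSPA8 was 0.189 ± 0.00808 and 0.428 ± 0.0159. In these 3 ratios every CCCP library was above every Sen (IR) library. In senescence, every Sen (IR) library was below every Prol library for HSPA9 over HSPA8 and above for HSPA9 over HSPA5, while TRAP1 over HSP90B1 overlapped.

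Of the wider machinery, 54 further genes of folding, proteolysis and import were listed and 52 tested (DNLZ and TOMM6 were not). With CCCP 26 of the 52 rose and 14 fell, with a median log2 fold change of 0.10, beside the 34.0% and 31.3% of all genes given above (40 and 3 on the TPM scale). MTX3, of the outer membrane sorting machinery, rose by 1.17 ± 0.051 (edgeR adjusted p = 1.39e-14), GRPEL2, a nucleotide exchange factor for HSPA9, by 1.10 ± 0.061 (adjusted p = 6.52e-13) and TIMM9, a small chaperone between the membranes, by 0.95 ± 0.082 (adjusted p = 9.55e-10). LACTB, a mitochondrial serine beta-lactamase-like protein, fell by 1.53, OMA1, a stress-activated inner membrane protease, by 0.77 and ROMO1 by 0.66 (adjusted p = 2.36e-14, 3.09e-07 and 0.000238).

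The counts by subgroup were not tested against each other, and stand beside the same 34.0% and 31.3% of all genes. Co-chaperones had 4 of 6 higher and 1 lower, the TIM23 translocase and its motor 6 of 9 higher and 2 lower, the TIM22 translocase and small TIMs 6 of 9 higher and 1 lower, the TOM genes (with the cytosolic TOMM34) 3 of 5 higher and 2 lower, and the MIA, SAM and OXA machineries 3 of 8 higher and 0 lower. Proteases and peptidases had 4 of 15 higher and 8 lower. The median log2 fold change was 0.38 for co-chaperones, 0.54 for TOM and -0.17 for the proteases.

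With acetate 6 of the 52 rose and 29 fell, beside 28.8% and 28.3% of all genes (median -0.22, against 0.0054 over all genes). TIMM10, a small TIM, fell by 0.70, TOMM5, a small TOM subunit, by 0.64 and PITRM1, which degrades cleaved presequences, by 0.64 (edgeR adjusted p = 1.50e-05, 6.34e-07 and 2.49e-10). ATP23, a metalloprotease homologue measured at no more than 3.07 CPM, rose by 0.98 ± 0.22, LACTB by 0.50 ± 0.068 and HTRA2, an intermembrane space protease, by 0.42 ± 0.098 (adjusted p = 0.000755, 1.54e-06 and 0.000922). The small TIM group had 0 of 9 higher and 5 lower, and the MIA, SAM and OXA machineries 0 of 8 higher and 6 lower.

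**Figure D4:**
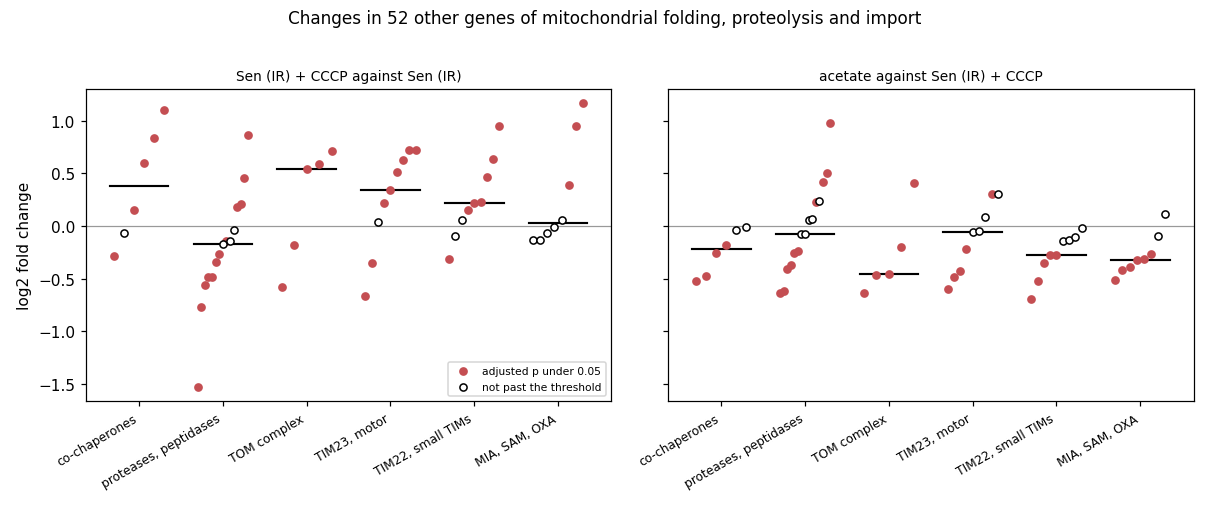
Log2 fold change (y axis) of 52 further genes in 6 subgroups (x axis) with CCCP against Sen (IR) on the left and with acetate against Sen (IR) + CCCP on the right. Points are genes, filled where the edgeR adjusted p is under 0.05, and lines are subgroup medians; the median of the co-chaperones is 0.38 on the left, and 29 of the 52 genes are filled and below 0 on the right.

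With mtDNA 4 of the 52 were higher and 4 lower, beside 10.7% and 7.40% of all genes (4 and 8 on the TPM scale, and 5 in all without mtDNA replicate 1). TIMM21, an accessory subunit of TIM23, went from 51.6 to 54.1 CPM with CCCP to 28.0 to 34.99 CPM with mtDNA, a fall of 0.73 (SE 0.096, edgeR adjusted p = 7.94e-06), and it also fell with the combination against acetate alone, by 0.58 (SE 0.098, adjusted p = 0.000366). GRPEL2, the partner of HSPA9, rose by 0.35 ± 0.058, HSCB, a co-chaperone of iron-sulphur cluster transfer, by 0.35 ± 0.092 and MTX3 by 0.28 ± 0.048 (adjusted p = 0.000119, 0.0104 and 0.000290), and SPG7, a subunit of the m-AAA protease, fell by 0.27 and BCS1L by 0.23 (adjusted p = 0.00124 and 0.0391). The combination against acetate alone, where 6.57% of all genes were higher and 6.0% lower, had 3 higher, MTX3, GRPEL2 and YME1L1 (0.20, 0.19 and 0.14), and 5 lower, led by TIMM21, BCS1L (-0.31) and SPG7 (-0.25), with 0 and 8 on the TPM scale. That count of 8 was 5 without acetate replicate 3, 5 without replicate 2 of the combination and 13 without Sen (IR) replicate 3.

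In the other comparisons the 52 genes counted as follows. In senescence 19 rose and 6 fell, beside 26.7% and 29.9% of all genes, led by GRPEL1 (0.70), MIPEP (0.69) and AIFM1 (0.67) upwards and ATP23 (-0.87), ROMO1 (-0.41) and GRPEL2 (-0.35) downwards. In Sen (IR) + CCCP against Prol 31 were higher and 8 lower (47 and 3 on the TPM scale), beside 35.1% and 34.1%, led by TIMM50 (1.00), GFER (0.96) and DNAJA3 (0.95) and by LACTB (-1.64), ROMO1 (-1.07) and ATP23 (-1.01). GRPEL2, which fell in senescence and rose with CCCP, stood at 32.4 to 36.8 CPM in Prol, 25.7 to 28.7 in Sen (IR) and 55.1 to 59.3 with CCCP. The combination against Sen (IR) + CCCP had 8 higher and 32 lower (3 and 38 on the TPM scale), beside 30.3% and 31.4%, with ATP23 (1.01), LACTB (0.70) and HTRA2 (0.36) highest and TIMM21 (-1.06), TOMM5 (-0.83) and BCS1L (-0.78) lowest. Set against mtDNA alone, 4 were higher and 30 lower, beside 27.4% and 29.9%, with ATP23 (0.97), LACTB (0.60) and HTRA2 (0.46) highest and TOMM5 (-0.70), TIMM9 (-0.70) and HSCB (-0.63) lowest. Acetate against Sen (IR) had 16 higher and 22 lower (32 and 8 on the TPM scale), beside 33.2% and 32.7%, with GRPEL2 (1.06), MTX3 (0.85) and ATP23 (0.84) highest and LACTB (-1.02), MIPEP (-0.97) and OMA1 (-0.72) lowest. In the interaction edgeR called 0 of the 52, with 1 at an unadjusted p under 0.05 and 0 with DESeq2.

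The 4 listed transcription factors of stress responses that act on mitochondrial chaperones were all higher with CCCP, where 34.0% of all genes rose and 31.3% fell. ATF4, the effector of the integrated stress response, stood at 173, 169 and 155 CPM in Sen (IR) and 596, 613 and 621 CPM with CCCP. ATF5, a factor of the mitochondrial unfolded protein response, went from 16.2, 17.9 and 17.5 to 49.3, 57.3 and 53.5 CPM, DDIT3 (CHOP) from 22.5, 23.3 and 22.7 to 67.2, 61.2 and 61.3 CPM, and HSF1, the heat shock factor, from 33.4, 35.0 and 34.2 to 64.2, 69.0 and 65.0 CPM. No library of either group overlapped for these 4 genes, which rose by 1.88 (ATF4), 1.64 (ATF5), 1.47 (DDIT3) and 0.95 (HSF1) on the log2 scale (edgeR adjusted p = 2.47e-16, 4.89e-13, 2.39e-15 and 1.92e-11).

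With acetate these factors parted, with 2 of the 4 higher and 1 lower, beside 28.8% and 28.3% of all genes. ATF5 stood at 14.8, 14.0 and 12.6 CPM, a fall of 1.96 (SE 0.089, edgeR adjusted p = 5.19e-14), and it was below Sen (IR) by 0.32 (adjusted p = 0.00449). ATF4 stood at 608, 593 and 612 CPM, overlapping CCCP alone (-0.01, adjusted p = 0.868), while DDIT3 rose to 94.6, 90.7 and 90.0 CPM (0.54 ± 0.053, adjusted p = 1.41e-08) and HSF1 to 81.0, 78.0 and 81.1 CPM (0.28 ± 0.062, adjusted p = 0.000580). With mtDNA DDIT3 rose by 0.65 ± 0.053 (adjusted p = 9.67e-09), and ATF5 (-0.13), ATF4 (-0.04) and HSF1 (0.02) were not past the threshold. In senescence ATF4 fell by 0.61 and ATF5 rose by 0.74. TOMM40, HSPD1, HSPE1, TOMM20 and ATF5 were thus higher with CCCP and lower again with acetate. LONP1 was higher in both comparisons, HSPA9 was higher with CCCP and not past the threshold with acetate, and CLPX passed with acetate only, where it fell. HSPA9 and DDIT3 were higher with mtDNA, and so was HSPA5 in every library. Whether these factors act on these genes here was not tested.

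**Figure D5:**
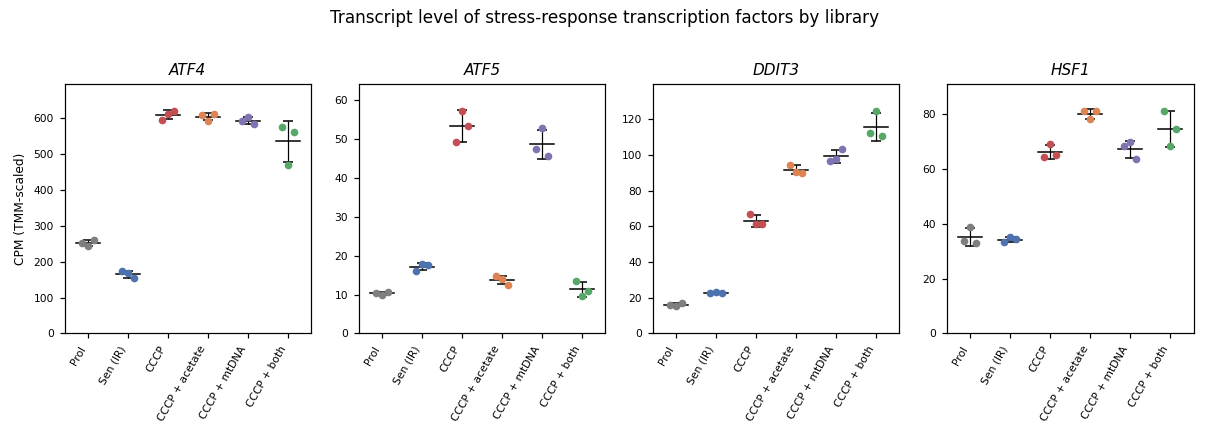
Level of ATF4, ATF5, DDIT3 and HSF1 in CPM on TMM-scaled library sizes (y axis, from 0) for the 6 groups (x axis; CCCP stands for Sen (IR) + CCCP). Points are the 3 libraries, lines the mean and error bars the SD; ATF5 lies at 45.8 to 57.3 CPM with CCCP or mtDNA and at 9.67 to 14.8 CPM in both acetate groups, while ATF4 lies at 593 to 612 CPM with acetate.

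The gene patterns most like that of HSPD1 over the 18 libraries, by root mean square difference of centred log2 CPM, were those of CCT6A (0.055), a cytosolic chaperonin subunit, UTP18 (0.056), ZC3H15 (0.056), COPS8 (0.056) and ABCF1 (0.057). TOMM20 was the nearest of the other 9 genes, at rank 157 of all tested genes (0.10), followed by TIMM23 at rank 789, HSPE1 at 924, CLPX at 1012, TRAP1 at 1023, CLPP at 1722, TOMM40 at 2898, LONP1 at 4699 and HSPA9 at 7437 (0.41). HSPE1, which shares the promoter region shown above with HSPD1, was nearer to HSPD1 by this measure than 6 of these genes and farther than TOMM20 and TIMM23. The measure also counts the size of changes, so a gene that did not vary would score the root mean square deviation of HSPD1 itself, 0.19. TIMM23, CLPX and TRAP1 varied little over the 18 libraries (0.081, 0.10 and 0.083), so their ranks do not show changes in the same direction as HSPD1. The study says that reads of stranded libraries were counted with regard to strand but not whether these libraries were stranded, and the annotated HSPD1 and HSPE1 overlap on opposite strands, so reads from the overlap cannot be assigned with certainty.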

How the data were processed

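RNA was measured in 18 libraries of IMR90, mapped to 6 groups by their labels. The authors used Trimmomatic (0.36) for trimming, STAR (2.5.2b) for alignment to GRCh38 and featureCounts (Subread 1.5.2) to count unique alignments in exons. They deposited raw counts per gene and TPM for the same genes. Stranded libraries were counted with regard to strand, but whether these were stranded, the annotation release and the gene lengths behind TPM are not given in the sources used here. Of 57500 genes, 485 carried no symbol. No column was without a sample.

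From the counts, edgeR (4.0.16, R 4.3.3) fitted a quasi-likelihood model of 6 group means to all 18 libraries, with TMM scaling, filterByExpr (16994 genes) and no replicate block. Contrasts gave log2 fold changes, SE and Benjamini-Hochberg adjusted p-values over all genes tested, with a threshold of 0.05. The interaction compares the mtDNA effect between cells with and without acetate (with minus without). Levels are CPM on TMM-scaled library sizes, or the deposited TPM where genes are compared. Ratios were tested by exact two-sided permutation (scipy 1.17.1). On counts simulated from these libraries (16335 genes, Sen (IR) + CCCP against Sen (IR)), the procedure recovered 100% of 100 genes changed by 1 and 84% of 100 changed by 0.5 on the log2 scale, with 6 false calls. The simulation gave all genes a common spread around their mean over all libraries. It changed far fewer genes than were called in the data and held no library that stood apart. These rates may therefore not hold for the real libraries, and changes under 0.5 were not simulated.

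The genes, lists, motifs and tests were chosen with earlier results of these data known. Named genes were the 10 genes, of the wider list per comparison up to 3 genes with the strongest called change each way, 4 listed transcription factors and 6 listed counterparts, with the 5 genes nearest to HSPD1 in pattern; values of other genes are given only in counts. GENCODE v44 and RefSeq tables (GRCh38) gave coordinates and promoters. Alternatives were upper-quartile, DESeq2 (1.42.0) and no scaling factors, no filter on low counts or at least 10 counts in every library, only the groups of a contrast, no mtDNA-encoded genes, the replicate block, DESeq2's Wald test, the study's own cutoffs (unadjusted p under 0.05 with a log2 change of at least 0.5 either way), limma (3.58.1) on log2(TPM + 1), and each library left out. Chosen after the data were seen were limma on TPM with library medians subtracted, and the fit without the 2 libraries that stood apart.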

Additional observations from a re-analysis of the deposited data

How the results depend on the processing

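Of the log2 fold changes of the 10 genes, 1193 values under alternatives other than leaving out a library kept their side of the threshold, 42 passed it newly in the same direction, 52 lost it and 13 took the other sign where the value was called in at least 1 of the fits. On leaving out single libraries 1763 kept their side, 13 passed newly and 24 lost the threshold, and no called value changed sign. Among the values called in neither fit, 39 and 32 in these sets changed sign, at no more than 0.095 and 0.067 either way. The 13 sign changes arose on library totals without a scaling factor and on TPM. On library totals CLPX (0.25) and TIMM23 (0.18) in Sen (IR) + CCCP against Sen (IR), LONP1 (0.30) and CLPP (0.33) in Sen (IR) + CCCP against Prol and HSPA9 (-0.11) in acetate against Sen (IR) + CCCP took the other sign. On log2(TPM + 1) so did CLPX (0.41) and TIMM23 (0.35) in the first of these, LONP1 (0.44) and CLPP (0.46) in the second, and HSPD1 (0.28), CLPP (0.28), CLPX (0.10) and TIMM23 (0.17) in acetate against Sen (IR). The 10 genes were all called, each higher, in the first and second comparison on either scale (10 and 10), and 9 were called in acetate against Sen (IR) on TPM; with library medians subtracted 8 were called in Sen (IR) + CCCP against Prol.

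Under the study's rule the calls among the 10 genes were 0 in senescence, 2 with CCCP against Sen (IR), 3 against Prol, 1 with acetate, 0 with mtDNA, 1 with the combination against CCCP, 0 against acetate, 1 against mtDNA, 2 with acetate against Sen (IR), since most changes are under 0.5; over all genes the rule gave 5709, 7380, 5522, 1758, 6460, 1290 and 5760 calls in the senescence, CCCP against Sen (IR), acetate, mtDNA, combination against CCCP, against acetate and against mtDNA comparisons, where edgeR gave 9628, 11088, 9709, 3071, 10487, 2136 and 9748. The combination against acetate gave 2 of the 10 on library totals, with upper-quartile factors, with no filter and with the replicate block (HSPE1 lower in addition), and 0 to 1 on leaving out single libraries, 0 without acetate replicate 3. Over all genes it gave 1241 to 2699 on leaving out single libraries, 1241 without acetate replicate 2 and 1296 without acetate replicate 3. The interaction gave 1 of the 10 without the 2 libraries that stood apart. Over all genes, where the main count was 112, it gave 820 without them, 413 with no filter, 258 with DESeq2, 622 by the study's rule, 64 on TPM, 57 on TPM with medians subtracted, and 55 to 403 on leaving out single libraries, with the highest count without replicate 2 of the combination and the lowest without CCCP replicate 3. That count was also 204 without Sen (IR) replicate 3, 62 without CCCP replicate 2, 68, 73 and 68 without acetate replicate 1, 2 and 3, and 62 and 67 without mtDNA replicate 1 and 3. The cause of these differences was not tested.

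Same-numbered libraries did not deviate together (0 of 45 pairs with r over 0.1, mean r 0.0029 against -0.0015 for other numbers, and 8 of 18 libraries nearest to their own number). Pairing by replicate number was thus not detected, which with so few libraries does not exclude it. With the replicate block the number of the 10 genes called was 6, 6, 5, 6, 1, 8, 2, 9, 5 and 0 in the 10 comparisons, against 1 without it in the combination against acetate and the same numbers elsewhere. Small changes near the threshold, such as those of CLPP, TIMM23 and HSPE1 in the combination, are those most limited by 3 libraries a group.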
